A study of Mus musculus with 30 samples.

Results

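Slc2a5, which encodes the fructose transporter GLUT5, was examined together with 5 other sugar transporter genes of the same family (Slc2a1, Slc2a3, Slc2a4, Slc2a7 and Slc2a8) and with Khk, the kinase that phosphorylates fructose once it is inside a cell. The 7 genes were taken by name, and all probes that carry one of these names on the array were used. They came to 10 probes of 6 genes, out of 41174 probes with 28146 different gene names. Slc2a7 had no probe, so it has no value here. Slc2a5 was included because its signal was lower in Per3-/- mice in these same arrays, so its genotype difference is a description and was not tested. The other members were chosen as relatives of Slc2a5 or, for Khk, as the next step of fructose use.

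The samples came from adult male mice lacking the circadian clock gene Per3 (Per3-/-) and from their wild-type (WT) litter mates, both on a C57Bl/6J background. All mice had been moved from a normal day to a schedule of 3.5 h light and 3.5 h dark, and tissue was taken in cycle 17 of that schedule, in the light. RNA from a dissected block of hypothalamus (8 WT and 8 Per3-/- mice) and from the whole eye (7 WT and 7 Per3-/- mice) was hybridised to 1-colour arrays of 60-base probes, 1 array per mouse and tissue. The knockout was compared with WT within each tissue to find which transcripts differ between the genotypes. Each value below is the log2 of the spot signal minus the log2 of the 75th percentile of its array, so 0 is that percentile and a difference of 1 is a doubling.

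Most members of the SLC2A family carry hexoses across membranes down their concentration gradient. SLC2A5 is selective for fructose, is best known from the small intestine, and in the brain is found mainly in microglia. SLC2A1 supplies glucose across the vascular endothelium of the brain and the outer barrier of the retina, SLC2A3 is the high-affinity glucose transporter of neurons, SLC2A4 is moved to the surface of muscle and fat cells by insulin, and SLC2A8 is a transporter held mostly on internal membranes.

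The arrays of both tissues were of similar quality, with 67.98% to 75.67% of probes flagged as well above background by the scanner software in the hypothalamus and 71.45% to 80.76% in the eye. Precision is limited by how many arrays there are. Per3, which the knockout targets, has 1 probe, and its spot passed that flag in all 30 samples, knockouts included. It was lower in Per3-/- mice by 0.51 log2 units in the hypothalamus (standard error (SE) 0.09, adjusted p = 0.0678, limma), with 7 of 8 Per3-/- mice below every WT mouse, and the difference in the eye was -0.45 (SE 0.23, adjusted p = 1). Marker genes fitted the labelled tissues. All 7 photoreceptor and all 6 eye marker genes were higher in the eye, and 8 of 10 hypothalamus marker genes were higher in the hypothalamus. Markers of tissues next to the hypothalamus varied widely between mice. The mean of 6 anterior pituitary markers ran from -2.80 to 1.32 in WT and from -2.90 to 6.26 in Per3-/- mice, that of 5 choroid plexus markers from -2.68 to 0.94 and from -2.55 to 1.20, and that of 4 red blood cell markers from -0.03 to 0.97 and from 0.15 to 2.10. All genes of these 3 lists had a higher mean in Per3-/- hypothalamus, with none called, and their part in the results below was not tested. In the eye all 5 adipose markers had a higher mean in Per3-/- mice, again with none called.

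Because every value below rests on what 1 probe binds, the last 30 of the 60 bases of the measured probes are shown, 5′ to 3′ in the sense of the transcript as the array files give them. Capitals mark the poly(A) signal hexamers AATAAA and ATTAAA, which were searched on the given strand only and which lie near the 3′ end of most transcripts. They occurred in this window in 2 of the 10 member probes and in 4.7% of all probes on the array.
Slc2a5, A_51_P514405: attattaactgtaagcgatactactttgta
Slc2a1, A_51_P464738: gtaactttacctaagcagatataaatggct
Slc2a3, A_52_P354744: acccttgcatagagtggtagagccatatct
Slc2a4, A_51_P217498: caagggctgctgtATTAAAtgtgtatatag
Slc2a8, A_51_P358171: ttccctcatggtcttccagcagctgtcagg
Slc2a8, A_52_P125354: aaacaaggtcaggtgagcccaggtagaaga
Khk, A_51_P490767: gtggccaagcacctggggttccagccagca
Khk, A_52_P72434: agatacctggagcaAATAAAtcttcccctg

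On mouse assembly mm9, as the array files give positions, the Slc2a5 probe lies at chr4:149517775-149517834 on the plus strand and the Slc2a1 probe at chr4:118809864-118809923 on the plus strand. The Slc2a3 probe lies at chr6:122678075-122678134 and the Slc2a4 probe at chr11:69756073-69756132, both on the minus strand. The 2 Slc2a8 probes lie at chr2:32831712-32831771 and chr2:32828692-32828751 on the minus strand. The 2 Khk probes lie at chr5:31232029-31232968 and chr5:31233555-31233614 on the plus strand, and the 60 bases of the former are spread over 940 bases of genome, so that it reaches across an exon junction. The files do not say which of the other probes lie in coding sequence and which in an untranslated region. Slc2a4 was printed as 10 spots on every array, and the SD between those spots was 0.052 to 0.107 log2 units. Slc2a3 had 2 further probes, A_52_P283862 and A_52_P371514, which passed the background flag in no eye and in at most 1 hypothalamus of each genotype. They are used further only in the search for single mice that stand apart from their group, given near the end.

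Slc2a5 was about 3 times lower in the hypothalamus of Per3-/- mice. In WT mice its log2 signal was -0.76 in the lowest, -0.32 in the median and 0.06 in the highest of 8 mice, and in Per3-/- mice it was -2.62, -2.06 and -1.56. Every one of the 8 Per3-/- mice lay below every WT mouse. The means were -0.32 ± 0.25 (SD, n = 8) and -2.03 ± 0.34 (SD, n = 8), a difference of -1.71 (SE 0.14), which is 3.27-fold lower in Per3-/- mice. The arrays of the hypothalamus lay on 4 slides with 2 mice of each genotype, and the difference was -1.47, -1.91, -1.62 and -1.84 on slides 1 to 4.

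In the eye Slc2a5 started from a far lower level and was again lower in Per3-/- mice. The lowest, median and highest of the 7 WT mice were -4.81, -4.55 and -4.20, and those of the 7 Per3-/- mice were -6.25, -5.84 and -5.37. All 7 Per3-/- mice lay below every WT mouse. The means were -4.48 ± 0.22 (SD, n = 7) and -5.86 ± 0.32 (SD, n = 7), and the difference was -1.37 (SE 0.14), or 2.59-fold. The signal was well above background on all 7 WT arrays but on 4 of 7 Per3-/- arrays, the other 3 being mice 2, 6 and 8, which held the 3 lowest values. On eye slide 1, with 1 mouse of each genotype, the difference was -2.05. On eye slides 2 to 4, with 2 mice of each genotype, it was -1.05, -1.43 and -1.30. Here the size of the difference depended on the background correction. The processed signals were only 46.5 to 77.1 intensity units in WT and 16.6 to 37.4 in Per3-/- eyes, and normexp, a correction that adds an offset of 50 units, gave -0.16. That value turned on 1 array, where the normexp fit was disturbed. It put Slc2a5 of Per3-/- mouse 6 at -1.56, against -4.22 to -3.33 in the other 13 eyes, and raised the 5th percentile of that array to -1.60. With spots below their local background left out before the fit (4 spots on that array, and 1 to 7 on 3 other eye arrays, where Slc2a5 moved by at most 0.03), a setting added after the data were seen, that eye was at -3.86 and the difference was -0.49, with WT eyes between -3.75 and -3.33 and Per3-/- eyes between -4.22 and -3.86. The genotype differences of the 2 tissues were not tested against each other for Slc2a5.

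**Figure D1:**
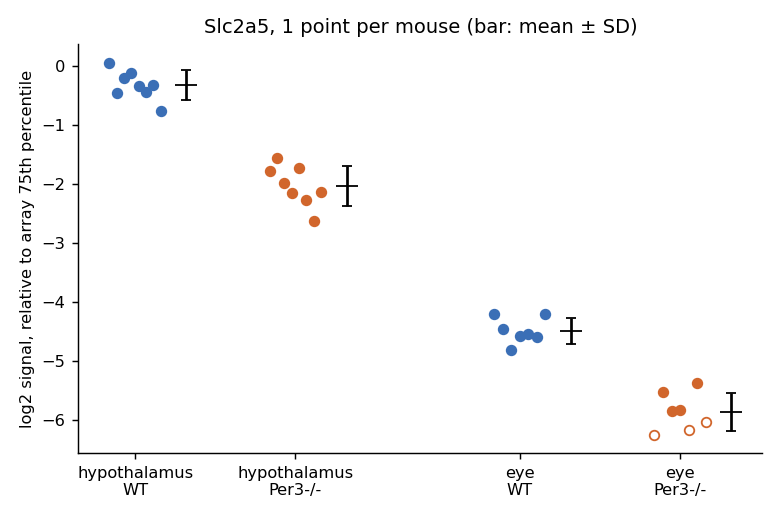
Log2 signal of Slc2a5 on the percentile scale, 0 being the array's 75th percentile (vertical axis), in the 4 groups (horizontal axis), 1 point per mouse, open where the spot was not well above background, with mean and SD to the right of the points. The 8 Per3-/- hypothalami sit between -2.62 and -1.56, below all WT hypothalami, and the 7 Per3-/- eyes between -6.25 and -5.37, below all WT eyes.

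Slc2a5 lies close to Per3 itself. The Per3 probe is on the same chromosome, at chr4:150379256-150379315, 861 kb from the Slc2a5 probe, and the GRCm38 gene annotation places 8 protein-coding genes between them. In that annotation Slc2a7, the family member with no probe here, is the next protein-coding gene on the side of Per3. The 4 genes on each side of Slc2a5 were therefore read as well, chosen by position alone. Next to it on the side of Per3, beyond Slc2a7, Car6, a secreted carbonic anhydrase, was lower in the eye of Per3-/- mice by 1.03 log2 units (SE 0.10, adjusted p = 0.000883, limma), with 7 of 7 Per3-/- mice below every WT mouse. In the hypothalamus Car6 passed the background flag in no mouse. The glycolytic enzyme gene Eno1 differed by -0.09 in the hypothalamus and 0.16 in the eye, and Rere, a transcriptional corepressor gene, by -0.03 and -0.04. On the other side, Gpr157 passed the flag in no sample. H6pd, the hexose-6-phosphate dehydrogenase of the endoplasmic reticulum, has 2 probes. One differed by -0.20 in the hypothalamus (SE 0.09, adjusted p = 0.9893, limma), with 7 of 8 Per3-/- mice under the whole WT range and the remaining mouse above it, and by -0.14 in the eye. The other differed by -0.13 in the hypothalamus (SE 0.10), with 5 of 8 Per3-/- mice under the WT range, and by -0.10 in the eye. Both Spsb1 probes on chromosome 4 differed in the opposite direction, by 0.39 and 0.36 in the hypothalamus and by 0.56 and 0.70 in the eye. Both Slc25a33 probes differed by 0.36 and 0.33 in the eye, but only by 0.02 and 0.001 in the hypothalamus. Car6 in the eye was the one of these neighbours with an adjusted p under 0.05. The loss of Per3 and any alleles of nearby genes inherited with the targeted locus cannot be told apart in this design.

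The lower Slc2a5 signal was not accompanied by lower microglia markers. All 15 markers passed the background flag in all 30 samples, and none was called in either tissue. Over all 41174 probes 17 (0.0413%) were called in the hypothalamus and 8 (0.0194%) in the eye. With calls that rare, the lack of one among 15 markers says nothing particular about them. In the hypothalamus 13 of 15 had a higher mean in Per3-/- mice, with a median difference of 0.04 (-0.015 over all probes), from -0.03 for Trem2 to 0.12 for P2ry12, a purinergic receptor of resting microglia. In the eye 11 of 15 were higher, with a median difference of 0.02 (0.0002 over all probes). The mean of the list lay between -0.74 and -0.08 in WT and between -0.32 and -0.17 in Per3-/- hypothalami, so the genotypes overlapped. Set against that mean in the same mouse, Slc2a5 was between -0.11 and 0.15 in WT and between -2.33 and -1.39 in Per3-/- hypothalami, and between -3.46 and -2.92 and between -4.97 and -4.26 in the eyes. In bulk tissue, fewer cells of a type and less RNA per cell cannot be told apart.

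The spread of Slc2a5 among mice of 1 genotype does not enter the difference for which it was chosen. In WT hypothalami Slc2a5 was higher in mice with higher microglia markers. Pearson's r with the mean of the 15 markers was 0.95 over 8 mice (exact permutation test, two-sided, p = 0.000149, adjusted p = 0.000595 over the 4 groups) and Spearman's rho was 0.95 (exact p = 0.00114, adjusted p = 0.00456). It was 0.98 without the 2 mice farthest from the median of Slc2a5, between 0.95 and 0.99 with any 1 mouse left out, and 0.93 after the slide means were removed. Of the single markers 14 of 15 correlated positively, with a median r of 0.89. Trem2, a receptor of microglia for lipids, had 0.97, Fcrls 0.96 and Gpr34 0.94, and Sall1, the transcription factor, was the exception at -0.39. The 5 probes closest to Slc2a5 over all 16 hypothalamus arrays, named further below, are not on the marker list. In these WT mice they had an r of 0.84 to 0.93. How many of all probes reach such an r was not counted, so the relation is not shown to be particular to microglia markers.

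The same relation did not reach the threshold in the other 3 groups. In the Per3-/- hypothalamus r was 0.37 and rho 0.33 (exact permutation test, n = 8, adjusted p = 0.37 and 0.43), and whether it differs from that in WT mice was not tested. The microglia mean varied less in Per3-/- mice, with an SD of 0.06 against 0.21 in WT mice. WT mouse 8 was at -0.74 and the other WT mice between -0.37 and -0.08. Slc2a5 itself varied more in Per3-/- mice (SD 0.34 against 0.25). In the eye r was 0.51 and rho 0.43 in WT mice (exact permutation test, n = 7, adjusted p = 0.33 and 0.43), and r was 0.66 and rho 0.61 in Per3-/- mice (exact permutation test, n = 7, adjusted p = 0.19 and 0.33). With normexp without spots below their background r became 0.87 in both (exact permutation test, n = 7, adjusted p = 0.0182 in each, and 0.0246 in WT and 0.0884 in Per3-/- mice for rho), and without the 2 mice farthest from the median it was -0.29 and -0.10. The latter leaves 5 mice and narrows the range of Slc2a5. With any 1 mouse left out r stayed positive, from 0.27 to 0.76 in WT and from 0.46 to 0.80 in Per3-/- eyes, and whether it passed the threshold depended on the background correction.

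**Figure D2:**
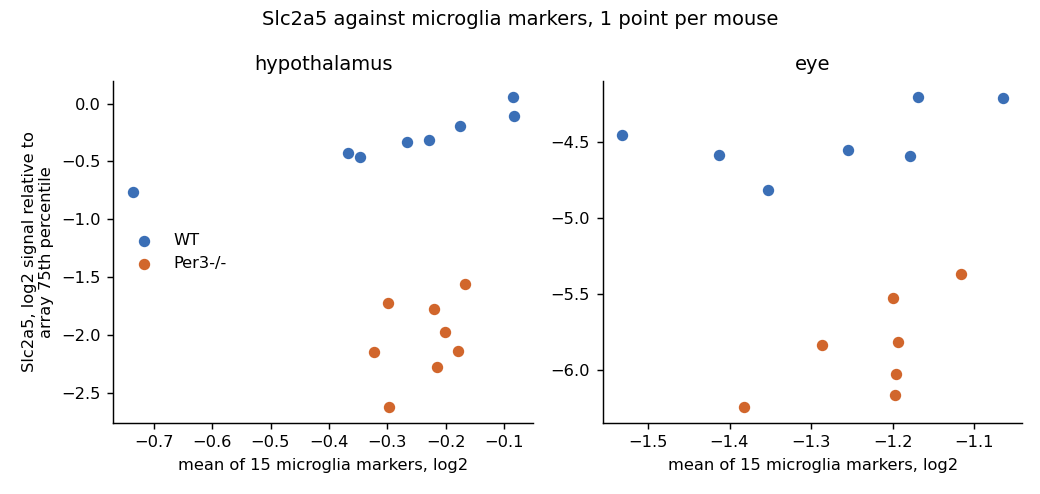
Slc2a5 (vertical axis, log2 relative to the 75th percentile of the array) against the mean of 15 microglia markers (horizontal axis, same scale), 1 point per mouse, hypothalamus at left and eye at right. The WT hypothalami lie along a line (r = 0.95), and the Per3-/- mice lie below the WT mice at the same marker level.

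No other member was called between the genotypes. Of the 7 probes of the 5 other genes that passed the background flag in every sample, none was called in the hypothalamus, where 17 of 41174 probes (0.0413%) were called in either direction, and none in the eye, where 8 (0.0194%) were. None had an unadjusted p under 0.05 either (lowest 0.134 in the hypothalamus and 0.110 in the eye, limma), and none was called under any other setting run. In the hypothalamus 6 of the 7 differences were below 0, with a median of -0.05 (-0.015 over all probes), and in the eye 3 of 7, with a median of 0.01 (0.0002 over all probes).

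Slc2a1, the glucose transporter of the blood-brain barrier, was between 3.96 and 4.42 (median 4.19) in WT and between 3.84 and 4.42 (median 4.13) in Per3-/- hypothalami, and the difference was -0.05 (SE 0.08, 95% interval -0.23 to 0.12). In the eye it was between 4.78 and 5.33 (median 5.18) in WT and between 4.84 and 5.11 (median 4.92) in Per3-/- mice, a difference of -0.14 (SE 0.08, 95% interval -0.32 to 0.04). The groups overlapped in both tissues.

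Slc2a3, the neuronal transporter, had the smallest SD of the members in WT hypothalami, 0.03 against 0.10 in Per3-/- mice. Its 8 WT mice lay between 2.74 and 2.84 and its 8 Per3-/- mice between 2.64 and 2.92, a difference of -0.03 (SE 0.04, 95% interval -0.12 to 0.07). In the eye the values were 0.86 to 1.33 and 1.06 to 1.24, a difference of 0.07 (SE 0.07, 95% interval -0.09 to 0.22).

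Slc2a4, the insulin-responsive transporter, varied more than the other 4 genes tested in the eye, with an SD of 0.49 in WT and 0.57 in Per3-/- mice. In the hypothalamus it was between -0.82 and -0.33 in WT and between -1.20 and -0.30 in Per3-/- mice, and the difference was -0.11 (SE 0.12, 95% interval -0.37 to 0.15). In the eye it ran from 2.03 to 3.34 in WT and from 2.24 to 3.82 in Per3-/- mice. The difference of 0.14 had an SE of 0.27 there, and its 95% interval of -0.43 to 0.72 leaves room for a rise of up to 64.9%, so a moderate change of Slc2a4 in the eye was not detectable with these mice.

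Both probes of Slc2a8, the intracellular transporter, gave small differences, 0.002 (SE 0.07) and -0.07 (SE 0.05) in the hypothalamus and 0.04 (SE 0.13) and -0.05 (SE 0.11) in the eye. The 2 Khk probes gave -0.07 (SE 0.05) and -0.02 (SE 0.05) in the hypothalamus and 0.01 (SE 0.09) and -0.03 (SE 0.10) in the eye. For Khk, the enzyme that acts on the fructose that Slc2a5 brings in, the 95% intervals in the hypothalamus were -0.19 to 0.05 and -0.14 to 0.09. Its 2 probes moved together from mouse to mouse around the group means (r = 0.89 over 16 hypothalamus arrays and 0.94 over 14 eye arrays), while the 2 probes of Slc2a8 hardly did (0.18 and 0.29).

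Across the 5 other genes, the largest rise that the 95% intervals allow in the hypothalamus was 0.15 log2 units, for Slc2a4. No rise of another measured transporter beside the lower Slc2a5 was called there, but a p that misses the threshold does not show that the levels were equal.

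**Figure D3:**
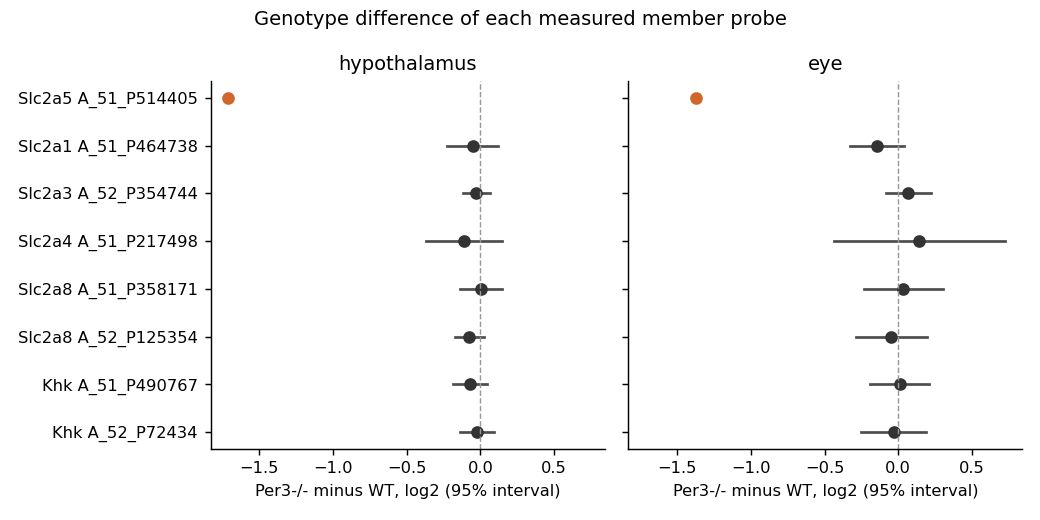
Difference of the genotype means (horizontal axis, Per3-/- minus WT, log2) for each measured probe (rows) in the hypothalamus (left) and the eye (right). Lines are 95% intervals of the limma fit and are drawn for the members other than Slc2a5, whose difference chose it. Slc2a5 stands at -1.71 and -1.37, and the intervals of all other probes include 0.

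The members fell into different patterns between the tissues. In WT mice Slc2a5 was 4.17 log2 units lower in the eye than in the hypothalamus (SE 0.14, adjusted p = 4.28e-21, limma with the mouse as a block), or 18.0-fold, and 7 of 7 eyes lay below every hypothalamus. With normexp without spots below their background the difference was -3.23. Slc2a3 was 3.27-fold lower in the eye (difference -1.71, SE 0.05, adjusted p = 3.87e-22). Slc2a1 was 1.87-fold higher in the eye (0.90, SE 0.08, adjusted p = 2.65e-11) and Slc2a4 9.54-fold higher (3.25, SE 0.20, adjusted p = 3.89e-15). For each of these 4 genes the tissues did not overlap in WT mice.

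Slc2a8 and Khk differed little between the tissues. The Slc2a8 differences were -0.20 (SE 0.10, adjusted p = 0.0628) and -0.19 (SE 0.08, adjusted p = 0.0311), and the latter call was lost with the slide as a random block (adjusted p = 0.0729), after quantile normalization, with either form of normexp, in Per3-/- mice, and without WT mouse 1, 3, 5, 7 or 8. The former probe, in turn, passed the threshold after quantile normalization (-0.33, adjusted p = 0.00273), with normexp without spots below their background (-0.19, adjusted p = 0.0392), and without WT mouse 1 or 7 or Per3-/- mouse 7. The Khk differences were 0.01 (SE 0.07) and -0.04 (SE 0.08), with adjusted p-values of 0.94 and 0.69. Such calls are common between these tissues: 75.3% of all probes were called in WT mice, 34.5% lower and 40.8% higher in the eye, so that 5 of the 8 measured member probes called is no mark of these genes. The tissues also lay on different slides and their signals were extracted from the scans separately, and tissue and extraction cannot be told apart.

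**Figure D4:**
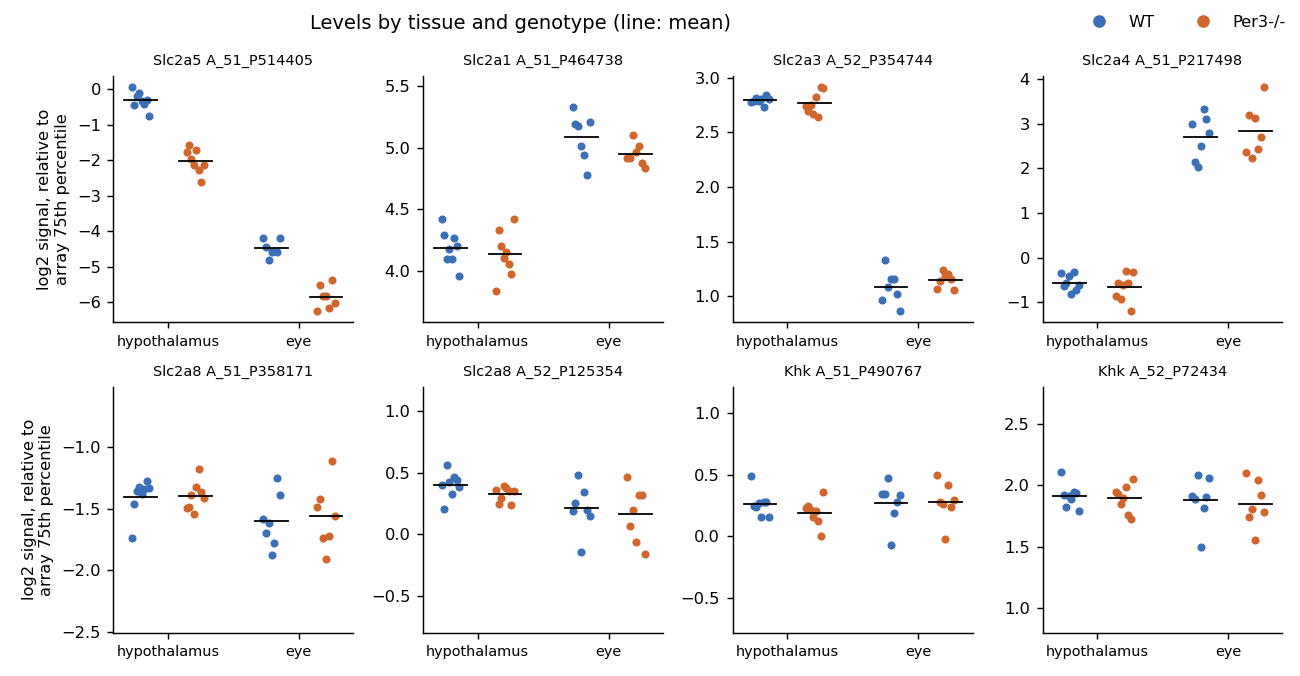
Log2 signal relative to the 75th percentile of the array (vertical axis, its range differs between panels) for the 8 measured member probes in hypothalamus and eye, 1 point per mouse, WT and Per3-/- in different colours, with lines at the means. Slc2a5 and Slc2a3 are lower and Slc2a1 and Slc2a4 higher in the eye, while Slc2a8 and Khk lie at similar levels.

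Lists of cell type markers moved between the tissues too, and each is given beside the member that is known from that cell type. Of the 15 microglia markers 11 were called lower and 2 higher in the eye, with a median of -0.71, from -3.53 for P2ry12 to 0.72 for Itgam. Of 7 neuron markers all 7 were lower (median -2.49), where Slc2a3 fell by 1.71 log2 units. Of 11 endothelial markers 9 were lower and 1 higher (median -1.01), whereas Slc2a1 was higher. All 7 skeletal muscle markers (median 8.69) and all 5 adipose markers (median 6.78) were higher in the eye, as was Slc2a4. The median over all probes was 0.11. The part of cell composition in the members' differences was not tested.

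The genotype effect itself was not found to differ between eye and hypothalamus for any member other than Slc2a5, for which no such test was made. The differences of the effects ran from -0.10 for Slc2a1 to 0.25 for Slc2a4, with SEs of 0.08 to 0.28 and adjusted p-values of 0.9999. Over the whole array 2 of 41174 probes (0.00486%) were called in this comparison.

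Slc2a4 in the whole eye followed the skeletal muscle markers. Over the 7 WT eyes its r with the mean of the 7 skeletal muscle markers was 0.98 and rho was 0.96 (exact permutation test, two-sided, p = 0.000595 and 0.00278), and over the 7 Per3-/- eyes r was 0.96 and rho 0.96 (p = 0.000992 and 0.00278). The adjusted p-values were 0.00595 for r and 0.0111 for rho in both, over 12 relations that were added after the values had been seen. Each of the 7 markers alone gave an r of at least 0.82. The relation held without the 2 mice farthest from the median of the markers (r = 0.94 and 0.95), with any 1 mouse left out (lowest 0.97 and 0.92) and with slide means removed (0.999 and 0.993). Relative to the marker mean of the same eye, the SD of Slc2a4 fell from 0.49 to 0.09 in WT and from 0.57 to 0.21 in Per3-/- mice. The mean of the adipose markers varied too, from -1.72 to 1.56 in WT and from -1.76 to 1.98 in Per3-/- eyes. The relation of Slc2a4 with these adipose markers was not tested.

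**Figure D5:**
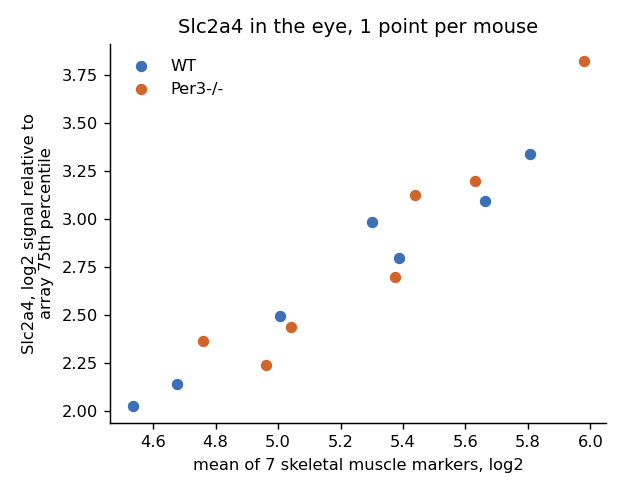
Slc2a4 (vertical axis, log2 relative to the 75th percentile of the array) against the mean of 7 skeletal muscle markers (horizontal axis, same scale) in the eyes of 7 WT and 7 Per3-/- mice. The points of both genotypes lie along one line, with r = 0.98 in WT and 0.96 in Per3-/- mice.

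The other 10 relations of that family, Slc2a1 with endothelial markers, Slc2a3 with neuron markers and Slc2a4 with muscle markers in the hypothalamus, gave 1 further adjusted p under 0.05. It was for the rank correlation of Slc2a3 with neuron markers in Per3-/- eyes (rho = 0.96, exact permutation test, n = 7, adjusted p = 0.0111), where r was 0.75 (adjusted p = 0.13). In WT eyes that r was 0.77 (exact permutation test, n = 7, adjusted p = 0.13) and dropped to 0.04 without 2 mice. Slc2a1 followed the endothelial markers in none of the 4 groups, with r between -0.38 and 0.55 (adjusted p 0.36 to 0.75, exact permutation test).

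Whether mice with less Slc2a5 had more of another transporter was read within each genotype and tissue, free of the genotype difference. Of 20 relations of Slc2a5 with the other 5 members, 13 were positive and 7 negative, with r from -0.47 to 0.67 and a median of 0.20. None had an unadjusted p under 0.05 by r or rho, and the lowest adjusted p was 0.63 for r and 0.77 for rho (exact permutation tests, n = 7 or 8). Some values in the eye moved far with the processing. After quantile normalization r with Slc2a1 in WT eyes was 0.86 (exact permutation test, n = 7, p = 0.0151, adjusted p = 0.30). With normexp r with Slc2a1 in Per3-/- eyes was -0.88 (exact permutation test, n = 7, p = 0.0262, adjusted p = 0.41), which includes the array with the disturbed fit. The rank correlation with Slc2a3 in WT eyes was -0.79 with normexp and -0.82 without spots below their background (exact permutation test, n = 7, p = 0.048 and 0.0341, adjusted p = 0.59 and 0.68). No relation passed the threshold after adjustment under any setting with a test. The highest r were those of Khk in the WT and the Per3-/- hypothalamus, 0.67 and 0.65 (exact permutation test, n = 8, adjusted p = 0.63 for both), with rho of 0.38 and 0.64. They were 0.91 and 0.87 after slide means were removed and -0.53 and 0.45 without the 2 mice farthest from the median of Slc2a5, so in WT mice the relation rests on those mice.

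No other gene of the sugar-handling lists was called. There was none in either tissue among 13 other Slc2a and Slc5a transporter genes, 14 genes of fructose and polyol metabolism and 18 of glycolysis. The same held for 8 of the pentose phosphate pathway and 12 that sense sugar or move transporters. The number with an unadjusted p under 0.05 (limma) was 3 of 65 in hypothalamus (4.62%, and 2.81% over all probes) and 2 of 65 in eye (3.08%, and 1.8% over all probes). Counts this small say nothing particular about these genes, which are named below by the fixed rule of lowest p. Medians of the 5 lists lay between -0.03 and -0.006 in the hypothalamus and between -0.06 and 0.05 in the eye.

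The genes of lowest p in the hypothalamus included Mlxipl, the carbohydrate-response transcription factor (-0.14, SE 0.05, unadjusted p = 0.0234), Rpe (0.13, SE 0.05, unadjusted p = 0.0251) and H6pd (-0.20, unadjusted p = 0.04), of which Rpe and H6pd belong to the pentose phosphate pathway. Aspscr1, a tether of SLC2A4, differed by -0.10, and the glycolytic genes Pkm and Eno1 by -0.09 each. Slc2a6, a lysosomal member of the family, differed by -0.08. Glyctk (0.13) and Fbp1 (0.30, SE 0.30) were the lowest of fructose metabolism. Slc5a1, the sodium-coupled glucose transporter of the gut, passed the background flag in no hypothalamus. All had an adjusted p of 0.9893.

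In the eye Slc2a10 differed by 0.20 (SE 0.09, unadjusted p = 0.0403), Slc5a1 by 0.46 (SE 0.23), Eno1 by 0.16 (unadjusted p = 0.0495) and Hk2, a hexokinase, by -0.19 (SE 0.14). The pentose phosphate genes Tkt and Rpia differed by -0.14 and -0.11. Mlx, the partner of the carbohydrate-response factor, and Txnip, which lowers glucose uptake, differed by 0.11 and 0.12. Pfkfb2 and Fbp2, both of fructose phosphate metabolism, differed by -0.12 and 0.35. All had an adjusted p of 1.

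Around the group means, the genes whose signal went most closely with Slc2a5 over the 16 hypothalamus arrays were Best1, a chloride channel (r = 0.95), 2700094K13Rik (0.94), 2310004N24Rik (0.92), Accs (0.92) and Nsdhl, an enzyme of cholesterol synthesis (0.92), among 27153 probes that passed the background flag in every hypothalamus. Over the 14 eye arrays they were Slc27a1, a fatty acid transporter (0.90), Pfkfb3 (0.84), TC1658525 (0.82), Mark4 (0.80) and complement component C2 (0.79), among 27892 probes. These are descriptions of mice that share slides, and quantile normalization kept 2 of the 5 in the hypothalamus, Best1 and Accs, and 1 of the 5 in the eye, TC1658525.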

How the data were processed

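RNA of 30 samples was labelled with Cy3 and hybridised to Agilent whole mouse genome arrays, 1 array per mouse and tissue without pooling. The intensities deposited by the authors were extracted with Agilent Feature Extraction and are linear signals that, per the file headers, had local background removed and spatial trends corrected, and that were not yet normalized across arrays. A second table by the authors holds log2 values scaled to the 75th percentile and centred on each probe's median over the arrays of a tissue, as comparison with the scanner values showed . Higher values there mean more signal. Eye files name no genes, so probes were matched by name.

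From the processed intensities, log2 was taken, and each array was scaled to its 75th percentile over non-control probes. Spots marked as uneven or outliers were left out, and spots of a probe were averaged. The genotype test used limma (version 3.58.1, R 4.3.3) separately per tissue. Tissues and the difference of genotype effects were tested over all 4 groups, where arrays of 1 genotype and replicate number, taken to be 1 mouse, shared a random effect (correlation 0.0583). The sources used here do not state that equal numbers are the same mouse. Without this block the differences of genotype effects gave no call for the member probes other than Slc2a5 either. All had Benjamini-Hochberg adjustment over 41174 probes and a threshold of 0.05. Correlations used exact permutation tests (two-sided, Python 3.11.15, numpy 2.4.6, scipy 1.17.1). Scripts were tested on simulated data.

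The members and the lists were chosen with earlier results of these data known. The named genes were all member probes, of each pathway list the genes called or else the 2 of lowest p per tissue, and the 5 probes most like Slc2a5 per tissue, with 1 probe per gene, that of highest mean signal. Neighbours of Slc2a5 were added by position. Of 157 list entries, 153 matched an array gene name, 2 a synonym and 2 none. The lists of marker genes were microglia, endothelium, neurons, astrocytes and Mueller glia, photoreceptors, skeletal muscle, adipose tissue, choroid plexus, anterior pituitary, red blood cells, hypothalamus and eye. Of 7 astrocyte and Mueller glia markers none was called between genotypes, with medians of 0.03 in the hypothalamus and -0.06 in the eye.

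Replicate numbers were not used to pair mice. The deviations of same-numbered mice of the 2 genotypes correlated between -0.20 and 0.40 in the hypothalamus and between 0.002 and 0.68 in the eye, and no source states a pairing. Alternatives were quantile normalization, normexp (offset 50, with the spot median in the eye), the deposited log2 values, a filter on dim probes, the slide as a block, the replicate number as a block, each mouse left out, and the unpaired test of the study's methods.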

Additional observations from a re-analysis of the deposited data

Results flagged for a closer look

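In 4 of 40 combinations of a member probe with a group of mice, 1 mouse stood apart from the rest of its group. Chance flags about 1 in 20 such combinations. The 40 come from 10 probes read in the same 4 groups and are not independent, so no excess over chance can be read from them. Both flagged in the hypothalamus came from WT mouse 1: the probe A_51_P358171 of Slc2a8 was lowest there, at -1.74 against -1.47 to -1.28 in the other 7 mice, and the probe A_51_P490767 of Khk was highest, at 0.491 against 0.16 to 0.28. The other 2 concern the Slc2a3 probes that were not well above background, A_52_P283862 in Per3-/- mouse 5 (-6.92) and A_52_P371514 in WT mouse 1 (-7.4), both in the eye, so they compare background signals.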

How the results depend on the processing

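The count of other members called between genotypes stayed at 0 under every setting run. The Slc2a5 difference was between -1.72 and -1.56 in the hypothalamus. In the eye that difference was -0.16 with normexp and -0.49 with normexp without spots below their background. Under the other settings it was between -1.37 and -1.26 there. The unpaired test, the filter and the slide block keep the difference of the group means, so they could not move it. The same holds for the replicate block in the hypothalamus. In the eye the Slc2a5 probe passed the filter through the WT arrays alone. With single mice left out the Slc2a5 difference ran from -1.78 to -1.62 and from -1.45 to -1.31. Probes called over the whole array went from 17 to 10 with normexp and 11 with its second form in the hypothalamus, and from 8 to 4 with normexp in the eye. With the replicate number as a block they went to 5 and 1, and the Slc2a5 difference to -1.71 and -1.26. Of 4 relations of Slc2a5 with microglia markers, r in Per3-/- hypothalamus turned to -0.24 without the 2 farthest mice. In WT eyes it was 0.87 with either form of normexp, -0.11 with slide means removed and -0.29 without 2 mice, and in Per3-/- eyes 0.98 and 0.87 with the 2 forms of normexp, 0.85 with slide means removed and -0.10 without 2 mice. Quantile normalization kept 2 and 1 of the 5 genes most like Slc2a5. The r of 0.98 and the difference of -0.16 include the array of Per3-/- mouse 6 with its disturbed normexp fit. Among the other members, none of the differences that turned sign was called in the main setting. Slc2a8 A_51_P358171 in the hypothalamus was -0.025 with normexp, -0.015 with its second form and -0.0032 after quantile normalization, and ran from -0.046 to 0.023 with single mice left out. Khk A_51_P490767 in the eye was -0.013 under the replicate block, and its tissue difference -0.060 with both forms of normexp. The tissue difference of Khk A_52_P72434 was 0.14 after quantile normalization. With single mice left out, the genotype differences of Khk A_52_P72434 lay between -0.046 and 0.0034 in hypothalamus and between -0.095 and 0.018 in eye, and in the eye those of Khk A_51_P490767 from -0.046 to 0.061, Slc2a4 from -0.020 to 0.25, and Slc2a8 from -0.04 to 0.093 and from -0.11 to 0.0077. The tissue differences of Khk ran from -0.026 to 0.049 and from -0.085 to 0.024, and the differences of genotype effects from -0.067 to 0.056 for Khk A_52_P72434 and from -0.037 to 0.10 and -0.032 to 0.088 for Slc2a8. Signal over background limits Slc2a5 in the eye, and each transcript but Slc2a8 and Khk rests on 1 measured probe.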
